A study of Mus musculus with 14 samples.

Results

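The 10 genes described here mark arterial endothelium or carry the Notch signal that sets arterial identity, and they were measured in dissected retinal veins. They were chosen by symbol (Efnb2, Dll4, Jag1, Hey1, Bmx, Unc5b, Sema3g, Gkn3, Alpl and Fbln5) from the 40123 gene symbols of the deposited table. All 10 were among the 29166 genes that reached a value of 1 in at least 5 libraries and were tested. The tested veins came from DBA/2J mice, an inbred strain that carries mutant Gpnmb and Tyrp1 alleles and develops pigment dispersion, raised intraocular pressure and glaucoma with age. The control veins, called normotensive in the labels, came from DBA/2J-Gpnmb+/SjJ mice, which share the DBA/2J background and its Tyrp1 allele but carry a working Gpnmb. All mice were 9 months old and had received sodium fluorescein (0.33 mg per g of body weight) 5 minutes before death. There were 9 DBA/2J and 5 control libraries, each from 4 pooled veins of 1 mouse. With 1 library per mouse, the spread between mice and technical spread cannot be told apart.

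An artery and a vein differ in the genes their endothelium uses. Notch ligands on a neighbouring cell bind Notch receptors, the receptor is cut by ADAM proteases and gamma-secretase, and its intracellular part joins RBPJ to switch on Hes and Hey repressors. In arterial endothelium this signal favours ephrin-B2, whose receptor EphB4 is enriched on veins. In the retina Notch genes are also used by Muller glia and neurons, and several of the 10 genes are expressed outside endothelium.

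Values are the deposited scaled values per gene, in which 1 estimated read was worth between 0.546 and 1.84 depending on the library. Estimated depth ran from 8931959 reads (DBA/2J sample 1) to 33786377 reads (DBA/2J sample 6) in DBA/2J and from 17774359 to 23437386 in control libraries. Gpnmb lay between 65.4 and 516 in DBA/2J and between 1409 and 3190 in control veins, so every library matched its strain label. Nr2f2, the transcription factor of venous identity, was present in every library, at 198 to 807 in DBA/2J and 349.7 to 691 in control. The veins were not pure endothelium. Pan-endothelial markers took 0.126% to 0.476% of the scaled total in DBA/2J and 0.125% to 0.202% in control, and rod markers 2.63% to 7.14% in DBA/2J and 2.15% to 4.65% in control. Lens markers took 0.000376% to 0.937% in DBA/2J and 6.69% to 14.5% in control, with no overlap. In such bulk samples, fewer cells of a type and less RNA per cell cannot be told apart.

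The members Sema3g, Gkn3 and Bmx are shown by the 250 bases before their RefSeq start (GRCm38.p6). Sema3g and Gkn3 shared their 3 highest libraries, DBA/2J samples 2, 4 and 7. Bmx, highest in samples 9, 4 and 6, shared only sample 4 with them. Alpl, highest in samples 4, 3 and 7, overlapped more and is not shown. Capitals mark TGGGAA (the RBPJ motif) or AGGAAG (an ETS motif) on either strand; these motifs did not overlap each other.
Sema3g, chr14:31217623-31217872, forward strand: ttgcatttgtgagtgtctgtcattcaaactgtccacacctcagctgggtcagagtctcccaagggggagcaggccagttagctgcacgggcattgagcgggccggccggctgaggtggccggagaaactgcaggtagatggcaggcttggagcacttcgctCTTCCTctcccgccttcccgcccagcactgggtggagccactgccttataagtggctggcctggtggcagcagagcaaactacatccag
Gkn3, chr6:87388936-87389185, reverse strand: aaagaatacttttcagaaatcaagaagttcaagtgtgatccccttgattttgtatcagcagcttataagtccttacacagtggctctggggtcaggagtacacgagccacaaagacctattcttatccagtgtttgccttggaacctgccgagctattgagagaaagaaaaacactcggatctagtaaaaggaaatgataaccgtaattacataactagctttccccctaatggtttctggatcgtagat
Bmx, chrX:164258194-164258443, reverse strand: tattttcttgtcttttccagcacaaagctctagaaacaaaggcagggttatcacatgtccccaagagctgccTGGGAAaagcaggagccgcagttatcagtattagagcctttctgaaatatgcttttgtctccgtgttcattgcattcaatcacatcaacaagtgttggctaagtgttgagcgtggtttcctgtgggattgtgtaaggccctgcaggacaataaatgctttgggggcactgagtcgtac
Sema3g held 1 ETS motif, 89 bases before the start, Bmx held 1 RBPJ motif, 178 bases before it, and Gkn3 held neither. Windows were found for 9 of the 10 members (11 windows), Hey1 being the member not matched. Among them the RBPJ motif was also in a window of Fbln5, and the ETS motif in windows of Alpl and Fbln5. Of all 32851 windows of this length, 21.6% held TGGGAA, 29.5% held AGGAAG and 9.42% held the SOX motif AACAAT, which was in no window of a member. These letters are a description of the windows and not of binding.

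Ephrin-B2, the Notch ligand Jag1 and the secreted guidance cue Sema3g were higher in DBA/2J veins, and no member was lower. At an adjusted p under 0.05 by limma, 12.1% of all genes tested were higher in DBA/2J and 7.2% lower, so 19.3% were called in either direction. Of the 10 members 3 were called higher and 0 lower. Their fold changes had a median of 0.96 on the log2 scale, against 0.05 for all genes tested, and all 10 were above 0, as were 52.6% of all genes tested. Of 15 venous markers 5 were called higher and 0 lower (median 0.95), and the list took 0.0724% to 0.394% of DBA/2J libraries and 0.0607% to 0.0802% of control libraries. That list includes the adhesion genes Selp, Icam1 and Vcam1 beside Nr2f2 and Ephb4. Nr2f2 differed by 0.015 (adjusted p = 0.979, limma), and Ephb4, at 0.77, did not pass (adjusted p = 0.162, limma). Of 18 pan-endothelial markers 6 were called higher and 0 lower (median 0.53). The part of endothelial content in the members' values was examined only by adding the pan-endothelial mean to the fit. In that fit 4 members were called higher (Efnb2, Jag1, Sema3g and Alpl), and of 29166 genes 3270 were higher and 2547 lower. For none of the 10 did the groups separate fully. Every DBA/2J library lay above every control for 2.91% of genes tested, so 0 of 10 does not set the members apart. A trend with transcript length and GC content was fitted jointly in each library, so length and GC content are not told apart. Once the part of each library that followed transcript length and GC content was taken out by a spline, 13.0% of genes were called (5.54% higher, 7.5% lower) and 0 members were, their median was 0.57 and 9 of 10 were above 0. Adding the mean of the lens markers to the fit left 0 members and 12 genes called (0.0411%). That mean, on the log2 scale, was 2.63 to 10.9 in DBA/2J and 13.2 to 14.4 in control, without overlap. Lens content and strain therefore cannot be told apart in that fit.

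**Figure D1:**
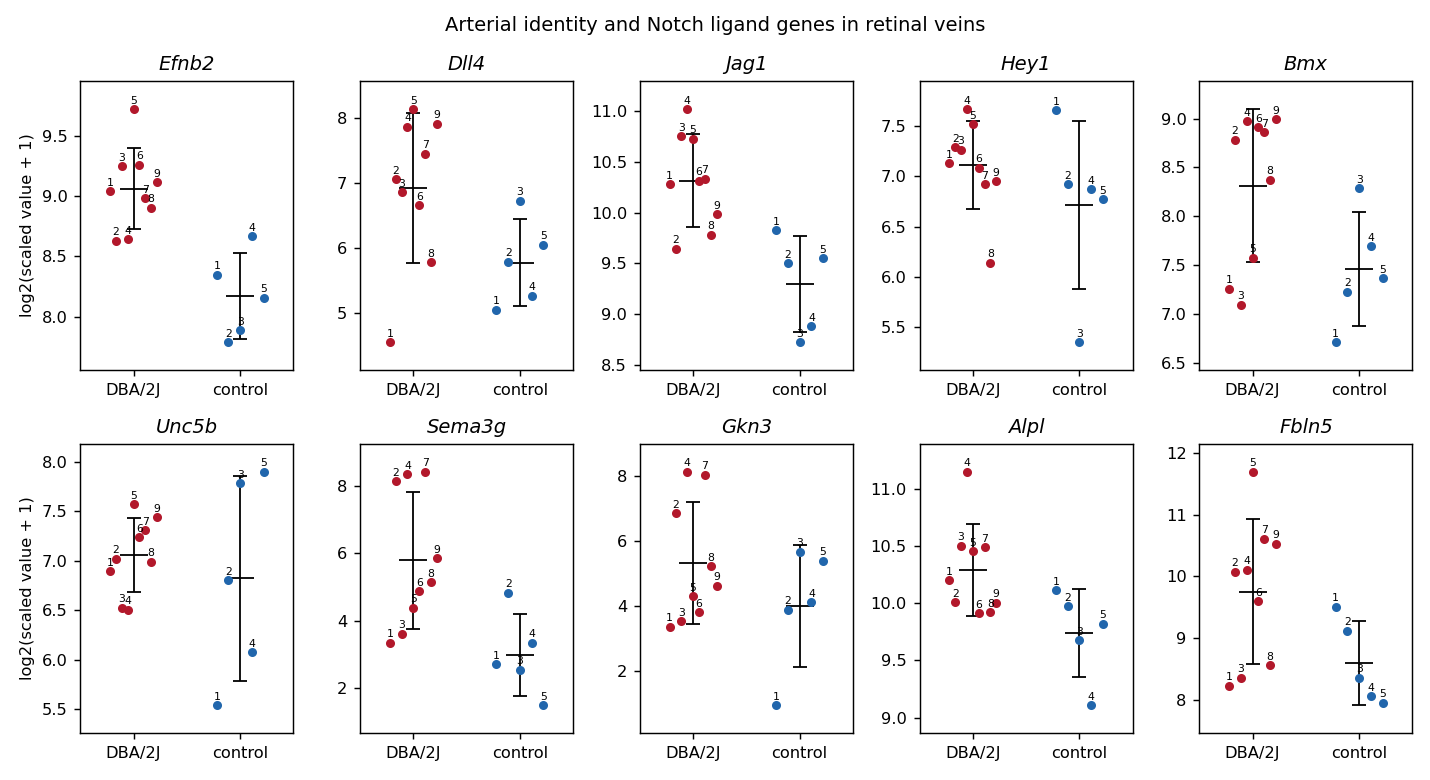
Level of each of the 10 genes as log2(scaled value + 1), 1 point per library with its sample number, DBA/2J on the left and control on the right; the horizontal mark and bar are the mean and SD (n = 9 and n = 5). Efnb2 and Jag1 have 7 of 9 DBA/2J libraries above the highest control, while Unc5b and Hey1 overlap widely.

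Efnb2 encodes ephrin-B2, the membrane ligand that marks arterial endothelium (chromosome 8, 8617434 to 8661242, GRCm38). In DBA/2J its scaled value was 395 at the lowest, 525 at the median and 844 at the highest (sample 5). In control samples 1 to 5 it was 325, 220.04, 236, 406 and 285. The 2 lowest DBA/2J libraries, samples 2 and 4, fell within the control range and the other 7 lay above it. The mean was 547 ± 136 (SD, n = 9) in DBA/2J and 294 ± 74.9 (SD, n = 5) in control, and the gene rose by 0.89 on the log2 scale (SE 0.19, adjusted p = 0.00459, limma). The call held in all 14 fits that left out 1 library (adjusted p up to 0.0166, limma). It was lost after removal of the length and GC trend (0.44, adjusted p = 0.107, limma) and with control samples 4 and 5 alone (0.65, adjusted p = 0.121, limma). With the pan-endothelial mean in the fit the difference was 0.85 (adjusted p = 0.00823, limma).

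The venous receptor of ephrin-B2, Ephb4, was at 1422 ± 820 (SD, n = 9) in DBA/2J and 720 ± 179 (SD, n = 5) in control, 0.77 higher on the log2 scale without passing (SE 0.38, adjusted p = 0.162, limma). Within a library, the log2 ratio of Efnb2 to Ephb4 averaged -1.16 ± 0.85 (SD, n = 9) in DBA/2J, between -2.33 and 0.30. In control it averaged -1.28 ± 0.72 (SD, n = 5), between -1.94 and -0.16. The difference of 0.12 was small beside the spread within either group (two-sided exact permutation p = 0.804, adjusted p = 0.826 over 2 ratios). DBA/2J samples 6, 7 and 9 had the most Ephb4 (2310, 2540 and 2309) and the lowest ratios of the DBA/2J libraries, and sample 3 had the highest.

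Jag1 and Dll4 are both ligands of Notch receptors, Dll4 being largely endothelial and Jag1 shared with smooth muscle, glia and lens. Their genes lie on chromosome 2, Jag1 at 137081456 to 137116644 and Dll4 at 119325784 to 119335962 (GRCm38). Jag1 was at 799 at the lowest, 1271 at the median and 2076 at the highest (sample 4) in DBA/2J. Control samples 1 to 5 had 907, 723, 421, 471 and 749. DBA/2J samples 2 and 8 were below the highest control, and the other 7 were above every control. The mean was 1332 ± 425 (SD, n = 9) in DBA/2J and 654 ± 204 (SD, n = 5) in control, and Jag1 rose by 1.02 (SE 0.23, adjusted p = 0.00666, limma). The call held in all 14 fits without 1 library and within both blocks of control library numbers: 0.97 against controls 1 to 3 (adjusted p = 0.0378, limma) and 1.10 against controls 4 and 5 (adjusted p = 0.0465, limma). It was lost after removal of the length and GC trend (0.51, adjusted p = 0.11, limma).

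Dll4 was far less abundant, with 22.3 at the lowest, 132 at the median and 282 at the highest (sample 5) in DBA/2J. The controls (samples 1 to 5) had 32.1, 54.1, 105, 37.3 and 65.2. In DBA/2J 6 libraries were above every control, samples 6 and 8 were within the control range, and sample 1, the shallowest library with 12.1 estimated reads of Dll4, was below all of them. The log2 fold change was 1.15 and did not pass (SE 0.49, adjusted p = 0.113, limma). Without DBA/2J sample 1 it was 1.44 and passed (adjusted p = 0.0168, limma). That sample was the lowest in DBA/2J, so that the difference had to grow. Of the 14 fits without 1 library this was the only passing fit. The log2 ratio of Dll4 to Jag1 averaged -3.39 ± 1.09 (SD, n = 9) in DBA/2J and -3.52 ± 1.00 (SD, n = 5) in control, a difference of 0.13 (two-sided exact permutation p = 0.826, adjusted p = 0.826 over 2 ratios). It was lowest in DBA/2J sample 1 and highest in control sample 3.

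Hey1, a transcriptional repressor switched on by Notch (chromosome 3, 8663359 to 8667256), was at 69.7 at the lowest (sample 8), 139 at the median and 202 at the highest in DBA/2J. In the controls it was 200.4, 120.3, 39.9, 116 and 108. Both groups covered much the same range, and the log2 fold change was 0.39 (SE 0.31, adjusted p = 0.411, limma). Without control sample 3, the lowest library, it was 0.052 (adjusted p = 0.924, limma).

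Unc5b, a netrin receptor of arterial and sprouting endothelium (chromosome 10, 60762593 to 60831581), lay between 89.8 and 189 in DBA/2J with a median of 129. Control samples 1 to 5 had 45.6, 111, 219, 66.6 and 238. Every DBA/2J library was thus inside the control range, and the log2 fold change was 0.23 (SE 0.34, adjusted p = 0.682, limma). Bmx, a Tec family tyrosine kinase of arterial endothelium (chromosome X, 164192842 to 164258193), was at 136, 441 and 509 at the lowest, median and highest DBA/2J library. The 5 controls had 104, 149, 312, 206 and 164. DBA/2J samples 1, 3 and 5 were at 152, 136 and 189.99, inside the control range, and the other 6 were above it. The log2 fold change was 0.86 and did not pass (SE 0.35, adjusted p = 0.097, limma). It passed in 1 of the 14 fits without 1 library (1.01, adjusted p = 0.0385, limma). That fit left out DBA/2J sample 3, the lowest DBA/2J library, so that the difference had to grow.

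Sema3g and Gkn3 set 3 DBA/2J libraries apart from the rest. Sema3g encodes a secreted class 3 semaphorin made by arterial endothelium (chromosome 14, 31217860 to 31230352, GRCm38). In DBA/2J samples 1 to 9 its value was 9.20, 279, 11.3, 321, 19.9, 28.2, 339, 34.4 and 56.6. In control samples 1 to 5 it was 5.58, 27.5, 4.85, 9.20 and 1.85. Samples 2, 4 and 7 stood at 279 or more, and no other library of either strain exceeded 56.6. These values rested on 323, 186 and 405 estimated reads in samples 2, 4 and 7 and on 2 to 30 reads in the controls. Sema3g rose by 2.80 on the log2 scale (SE 0.86, adjusted p = 0.0294, limma). The call was lost without control sample 3, 4 or 5 (adjusted p up to 0.074, limma) and after removal of the length and GC trend (2.44, adjusted p = 0.0667, limma). It was also lost against controls 1 to 3 alone (2.42, adjusted p = 0.139, limma) and controls 4 and 5 alone (3.36, adjusted p = 0.106, limma). Without DBA/2J samples 2, 4 and 7, left out after their values were seen to be the highest, so that the difference had to shrink, it was 1.54 (adjusted p = 0.108, limma).

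Gkn3, a gastrokine gene used as a marker of brain arterial endothelium in the mouse, had values of 9.20, 114, 10.5, 278, 18.6, 13.0, 259.6, 36.04 and 23.5 in DBA/2J samples 1 to 9. In control samples 1 to 5 it was 0.930 (1 estimated read), 13.7, 49.7, 16.4 and 40.8. Its 3 highest libraries were again DBA/2J samples 2, 4 and 7, and the other 6 DBA/2J libraries were inside the control range. The log2 fold change was 1.31 and did not pass (SE 0.89, adjusted p = 0.328, limma). Without these 3 libraries, left out for their high values, it was 0.13 (adjusted p = 0.928, limma). Across the 9 DBA/2J libraries Pearson's r between Sema3g and Gkn3 was 0.96, the highest of all pairs of members, and it is a description over libraries that differ in depth and tissue makeup. Gkn3 lies on chromosome 6 (87383256 to 87388935, GRCm38), as does Gpnmb.

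**Figure D2:**
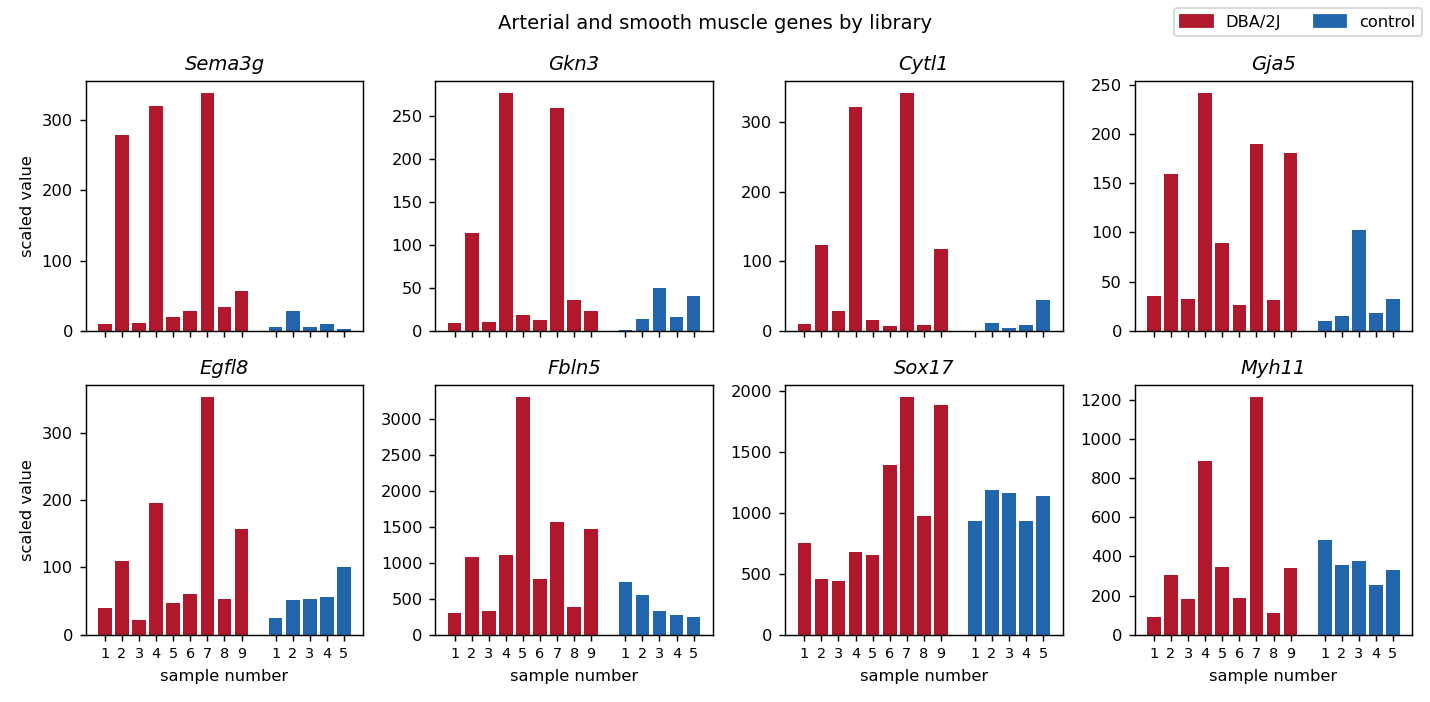
Scaled value of 8 genes in each library, 1 bar per library, DBA/2J samples 1 to 9 in red and control samples 1 to 5 in blue. Sema3g, Gkn3 and Cytl1 are highest in DBA/2J samples 2, 4 and 7, Fbln5 in sample 5, and Sox17 in samples 7 and 9.

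These 3 libraries were picked for their Sema3g and Gkn3 values. They were also the 3 highest for 1 of the 22 genes in a list of other arterial endothelial genes, and for 106 of all genes tested (0.363%), Sema3g and Gkn3 included. That gene, Cytl1, a small secreted protein, was at 124, 322 and 343 in these 3 libraries, with sample 9 close behind sample 2 at 118. It was named after its values were seen, as were the other arterial and smooth muscle genes of this paragraph. Gja5, the arterial connexin 40, was highest in samples 4, 7 and 9 (242, 189.8 and 181) and stood at 159.5 in sample 2, against 10.3 to 103 in control veins. Egfl8 was highest in samples 7, 4 and 9 (354, 196 and 158). Sox17, a transcription factor of arterial endothelium, did not follow this order, with 460.2, 682 and 1949 in samples 2, 4 and 7, against 929 to 1185 in control veins. Myh11, smooth muscle myosin, was highest in samples 7 and 4 (1214 and 885) but at 304 in sample 2, against 254 to 486 in control veins. Acta2, smooth muscle actin, was at 1341, 2024 and 3669 in samples 2, 4 and 7, against 3186 to 6016 in control veins. Its log2 fold change was -0.96 (SE 0.31, adjusted p = 0.0371, limma), a call that held in 5 of 14 fits without 1 library. The whole smooth muscle list took 0.0285%, 0.0351% and 0.0633% of samples 2, 4 and 7, within the 0.0241% to 0.0732% of all DBA/2J libraries, and 0.0435% to 0.0563% of control libraries. Of its 10 markers 1 was higher and 1 lower in DBA/2J, near the 12.1% higher and 7.2% lower of all genes tested. None was at 0 in any library. The part that arterial cells in the dissected veins had in these values was not tested.

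Alpl and Fbln5 showed other library patterns. Alpl, tissue-nonspecific alkaline phosphatase, an ectoenzyme of brain capillaries and arterioles (chromosome 4, 137741733 to 137796384), was at 965 at the lowest, 1175 at the median and 2274 at the highest (sample 4) in DBA/2J. Across the controls it was 1106, 1005, 818, 552 and 904. In DBA/2J 5 libraries were above the highest control and 4 were inside the range. The log2 fold change was 0.56 and did not pass (SE 0.21, adjusted p = 0.0671, limma). Of the 14 fits without 1 library it passed only without control sample 1 (0.65, adjusted p = 0.0435, limma). That sample was the highest control, so that the difference had to grow. With the pan-endothelial mean in the fit it was 0.64 and passed (adjusted p = 0.048, limma). Alpl and Jag1 were both highest in DBA/2J sample 4, and sample 3 came second in both (1451 for Alpl, 1722 for Jag1). The same samples had the largest shares of rod markers (7.14% and 5.66%) and the most Nt5e, an ectonucleotidase gene named after its values were seen (5700.5 and 5133). The part of photoreceptor RNA in these values was not tested.

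Fbln5, a glycoprotein that binds elastin in the vessel wall (chromosome 12, 101746565 to 101819055), was at 300.3 at the lowest, 1077 at the median and 3307 at the highest in DBA/2J. The 5 controls had 728, 557, 328, 268 and 248. In DBA/2J 6 libraries were above every control and samples 1, 3 and 8 were inside the control range. The log2 fold change was 1.15 and did not pass (SE 0.48, adjusted p = 0.105, limma). DBA/2J sample 5, the highest, was also highest for the matrix genes Fbln1, Mfap4 and Fbn1 (27732, 18891 and 14893, against at most 2386, 1109.7 and 1449.5 in control veins), named after their values were seen. Its share of fibroblast markers, 0.0183%, lay within the 0.00561% to 0.0338% of all DBA/2J libraries, where control libraries had 0.0101% to 0.0165%. The elastin gene Eln, also named after its values were seen, was not highest in sample 5. It was at 781 there, below the DBA/2J median of 805, in a DBA/2J range of 374 to 1723. Control veins had 425 to 771. Without sample 5 the log2 fold change of Fbln5 was 0.91 (adjusted p = 0.15, limma).

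**Figure D3:**
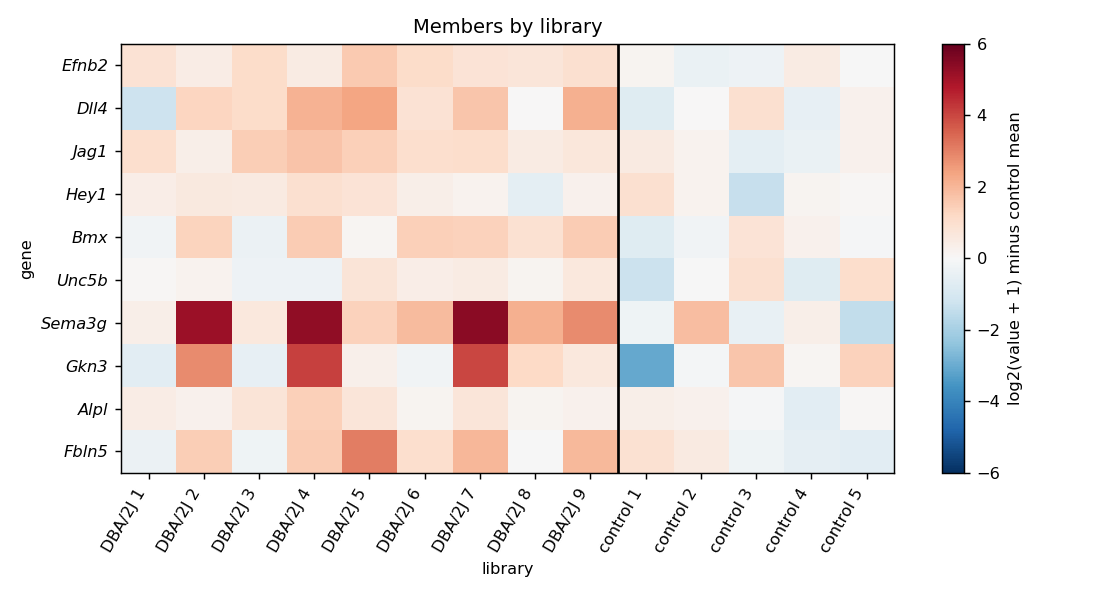
log2(scaled value + 1) of each gene minus its control mean, by library, DBA/2J to the left of the black line and control to its right. DBA/2J samples 2, 4 and 7 carry the Sema3g and Gkn3 values, and sample 5 the highest Fbln5.

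Per transcript length, the levels had a similar order in both strains. With values divided by transcript length and set to a common total in each library, Alpl was highest, at 68.5 ± 25.5 (SD, n = 9) in DBA/2J and 31.1 ± 8.56 (SD, n = 5) in control. Jag1 came next, at 31.2 ± 10.9 in DBA/2J and 10.5 ± 3.70 in control, followed by Fbln5, at 25.2 ± 19.7 and 6.44 ± 3.01. Bmx (15.5 ± 6.95 in DBA/2J, 5.44 ± 1.77 in control) and Efnb2 (14.8 ± 3.09 and 5.52 ± 1.66) did not differ from each other beyond their spread in either strain. Gkn3 and Hey1 were lower in the order in DBA/2J, at 13.7 ± 17.8 and 7.78 ± 2.50, and in control, at 2.51 ± 1.99 and 4.37 ± 1.98. The lowest in control veins was Sema3g, at 0.201 ± 0.228, and in DBA/2J veins Unc5b, at 3.00 ± 0.617. Dll4 stood at 5.17 ± 2.92 in DBA/2J and 1.37 ± 0.564 in control. This scale gives the order of genes within a strain. Short crystallin transcripts take a large part of it in control libraries, so it is not used to compare the strains.

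**Figure D4:**
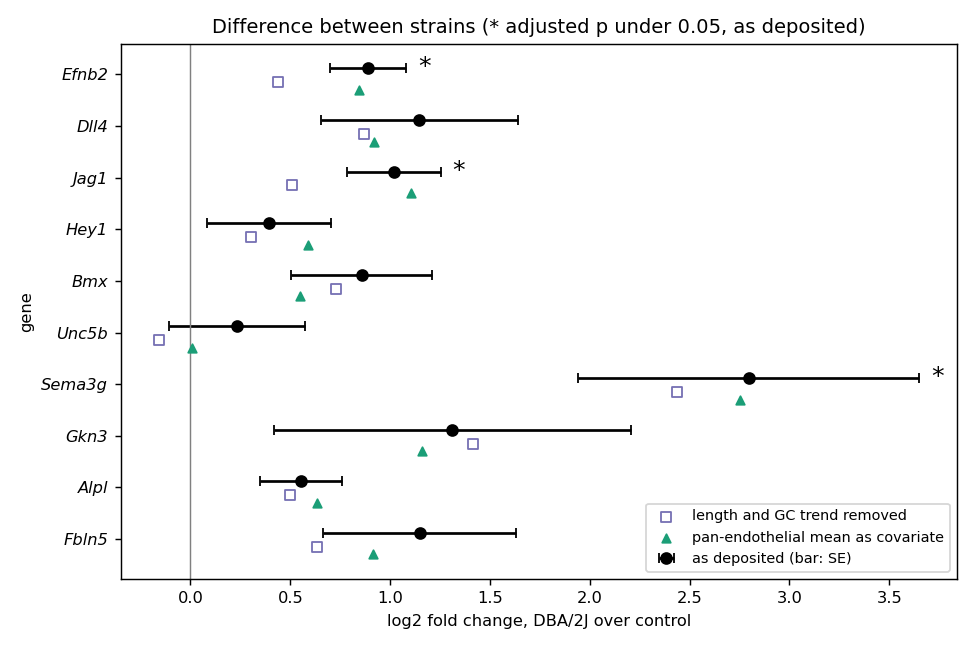
log2 fold change of each gene, DBA/2J over control: filled circles with SE bars as deposited, open squares after removal of the length and GC trend, triangles with the pan-endothelial mean in the fit; stars mark an adjusted p under 0.05 as deposited. Efnb2, Jag1 and Sema3g carry a star, and the squares of Efnb2 and Jag1 lie at 0.44 and 0.51.

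Among 22 other arterial endothelial genes, 1 was higher and 0 lower in DBA/2J, where 12.1% of all genes tested were higher and 7.2% lower. The median log2 fold change of the 22 was 0.25, against 0.05 for all genes tested. Tgfb2, a growth factor, was the gene that rose, by 0.76 (SE 0.19, adjusted p = 0.012, limma), to 613 ± 137 (SD, n = 9) in DBA/2J, against 369 ± 115 (SD, n = 5) in control. Gja4, arterial connexin 37, also named after its values were seen, differed by 0.048 on the log2 scale (adjusted p = 0.943, limma) and Sox17 by -0.26 (adjusted p = 0.615, limma). After removal of the length and GC trend 0 of the 22 were called, against 13.0% of all genes tested. Pecam1, a junction protein of all endothelium, was at 3713 ± 1921 in DBA/2J (SD, n = 9) and 1646 ± 425 (SD, n = 5) in control and rose by 1.04 (SE 0.32, adjusted p = 0.0293, limma), a call lost without DBA/2J sample 6 or control sample 2, 3 or 4. For Cdh5, VE-cadherin, the log2 difference was 0.031 (adjusted p = 0.969, limma).

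The Notch lists are set beside all genes tested, of which 12.1% were higher and 7.2% lower. Of 10 Notch receptors and other ligands, 2 rose and 0 fell (median 0.83). Notch2 rose by 1.34 (SE 0.34, adjusted p = 0.0119, limma), with 605 ± 277 (SD, n = 9) in DBA/2J and 247 ± 136 (SD, n = 5) in control. Against controls 4 and 5 alone its difference was 2.11 (adjusted p = 0.0117, limma). Against controls 1 to 3 alone it was 0.83 and did not pass (adjusted p = 0.145, limma). Jag2, another Notch ligand, rose by 0.91 (SE 0.24, adjusted p = 0.0127, limma). Of 9 targets, Hey2 rose and Hes5 fell (median 0.23). Hes5, a repressor gene used by retinal glia and progenitors, was between 121 and 360.5 in DBA/2J, and control samples 1 to 5 had 265, 481, 431, 426 and 557. It fell by 1.11 (SE 0.23, adjusted p = 0.0039, limma), and 8 of 9 DBA/2J libraries were below the lowest control. Hey2 rose by 0.65 (SE 0.20, adjusted p = 0.0312, limma), a call lost without DBA/2J sample 4 or 6 or control sample 3 or 4 (adjusted p up to 0.102, limma). Hes5 also passed after removal of the length and GC trend (-0.88, adjusted p = 0.038, limma), as did Notch2 (0.94, adjusted p = 0.0461, limma), and Hey2 and Jag2 did not.

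Of 28 Notch processing and transcription genes, 11 rose and 0 fell (median 0.50), against 12.1% and 7.2% of all genes tested. After removal of the length and GC trend 5 were higher and 1 lower, against 5.54% and 7.5% of all genes tested. Aph1b, a subunit of gamma-secretase, rose by 0.91 (SE 0.19, adjusted p = 0.00407, limma). It ran from 516 to 878 in DBA/2J, and control samples 1 to 5 had 480.0, 467, 234, 284 and 463, so the groups did not overlap. Adam17, a protease that sheds receptors and ligands, rose by 0.94 (SE 0.22, adjusted p = 0.00786, limma). Numb, which opposes Notch, rose by 0.93 (SE 0.19, adjusted p = 0.0041, limma), so the list holds risers of opposite roles. Aph1b and Numb separated the strains fully and passed after the trend was removed, and Adam17 did neither.

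The partners of the guidance members are set beside all genes tested, of which 12.1% were higher and 7.2% lower. Of 7 receptors of class 3 semaphorins 3 rose (median 0.72): Plxna2 by 0.85 (SE 0.14, adjusted p = 0.00102, limma), Plxna3 by 1.32 (SE 0.22, adjusted p = 0.00128, limma) and the neuropilin Nrp2 by 1.01 (SE 0.27, adjusted p = 0.0143, limma). Of 15 netrin and Robo guidance genes 4 rose (median 0.68). Neo1, a netrin receptor, was between 1130.05 and 1887 in DBA/2J, against 434 to 621 in control, and rose by 1.46 (SE 0.15, adjusted p = 3.81e-05, limma). Slit2 rose by 1.08 (SE 0.24, adjusted p = 0.00582, limma). Robo1 (0.90) and Flrt2 (0.81) also passed, the first not without control sample 3 and the second not without control sample 2 or 3. Of 9 ephrin-B and Eph genes 2 rose (median 0.50), Efnb3 by 0.61 (SE 0.18, adjusted p = 0.0233, limma) and Ephb2 by 0.50 (SE 0.15, adjusted p = 0.0253, limma). The Efnb3 call was lost without control sample 2 or 4 and the Ephb2 call without control sample 3. After removal of the length and GC trend 2 semaphorin receptors, 2 guidance genes and 0 ephrin or Eph genes remained higher, and 0 were lower. In that fit 5.54% of all genes tested were higher and 7.5% lower.

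**Figure D5:**
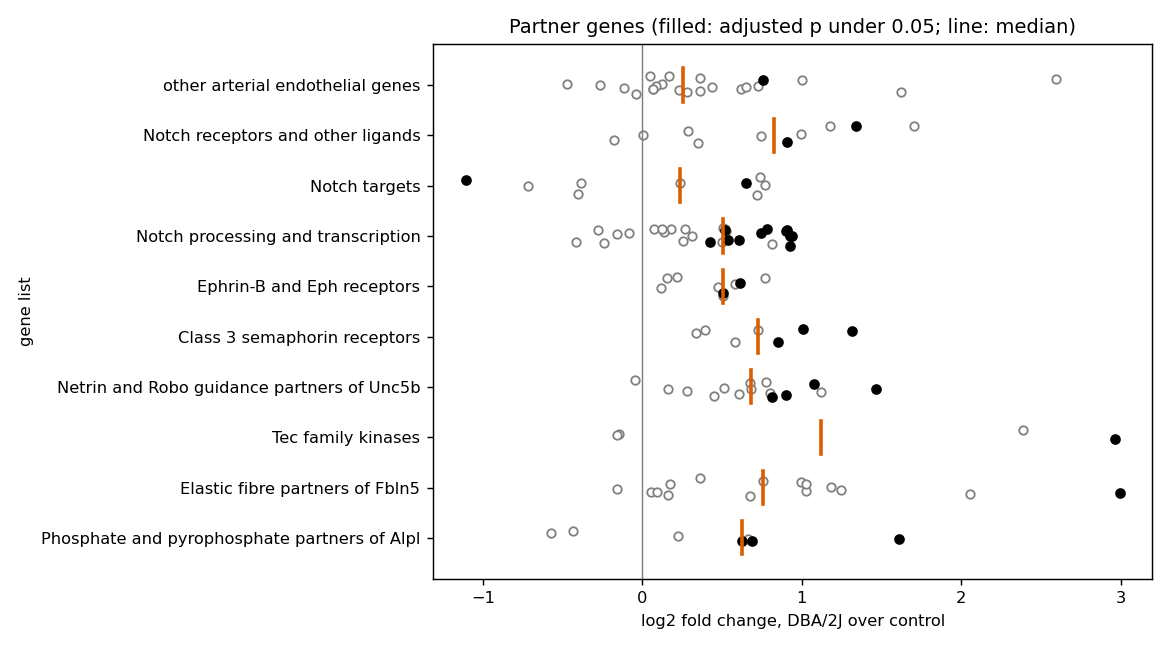
log2 fold change, DBA/2J over control, of each partner gene by list: filled points passed an adjusted p of 0.05, open points did not, and the orange line is the list's median. Hes5, at -1.11, is the filled point below 0.

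The kinase, elastic fibre and phosphate lists are set beside all genes tested, of which 12.1% were higher and 7.2% lower. Of 4 Tec family kinases 1 passed: Btk, a kinase of B cells and myeloid cells, was between 2.90 and 76.2 in DBA/2J, and control samples 1 to 5 had 13.1, 11.5, 3.64, 0 and 0.831. Its log2 fold change was 2.97 (SE 0.72, adjusted p = 0.00926, limma), which control sample 4 at 0 enlarges. Leukocyte markers took 0.00546% to 0.0428% of DBA/2J libraries and 0.00487% to 0.00787% of control libraries, with 4 of 8 higher in DBA/2J, and their part in the Btk values was not tested. Of 15 elastic fibre partners of Fbln5 1 rose (median 0.76): Lox, the oxidase that crosslinks elastin and collagen, by 3.00 (SE 0.50, adjusted p = 0.00124, limma). Lox was between 36.8 and 195 in DBA/2J, and control samples 1 to 5 had 40.3, 16.1, 12.5, 3.16 and 4.78. Of 7 phosphate and pyrophosphate genes analysed beside Alpl 3 rose (median 0.62): Enpp1, which makes pyrophosphate, by 1.61 (SE 0.37, adjusted p = 0.00644, limma), and the phosphate transporters Xpr1 and Slc20a1 by 0.69 and 0.62. None of these 3 passed after the trend was removed, and Slc20a1 did not without control sample 3.

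For each member, the 3 coding genes with the highest Pearson's r over the 9 DBA/2J libraries were found among 12072 genes with a mean value of at least 100. Jag1 was most like Snx12 (r = 0.98), Ppp4r3a and Rbbp5, and Alpl like Cep85 (r = 0.98), Fam53b and Akap1. Hey1 was most like Hs2st1 (r = 0.98), Slc46a1 and R3hdm2, and Unc5b like Il17rc (r = 0.98), Naglu and Kazn. Dll4 was most like Wrap53 (r = 0.96), Lurap1 and Pitpnm2. Bmx was most like Mbtps2 (r = 0.94), Pcsk7 and Kcnk3, and Efnb2 like Fkbp14 (r = 0.94), Rasef and Atxn7l3. Fbln5 was most like Pcdhb14 (r = 0.94), Uhrf1bp1l and Osbpl3. Sema3g was most like Sft2d3 (r = 0.94), Syne2 and Gadd45a, and Gkn3 like Syne2 (r = 0.94) and 9430015G10Rik, so Syne2 was named for both. The libraries differ in depth and tissue makeup, and these values are the highest of many.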

How the data were processed

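Retinal veins were profiled by SMART-Seq v4 from about 100 pg of RNA. Per the series design text, reads were quantified with kallisto against GRCm38 with GENCODE M23; kallisto, sleuth and GRCm39 are named per the submitters' processing notes. The deposited signal values per gene symbol are, from the values, estimated counts divided by a factor per library, by a method not given in the sources used here. Within 0.01, 18.8% to 22.1% of values came out as whole reads, so no count model was run. Without molecular identifiers, read numbers bear on counting error alone.

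Of 40149 rows, 26 with symbols turned into dates (at most 0.201% of a library) were left out. GENCODE M21 (GRCm38) gave coordinates and the longest transcript for 39019 symbols. Genes with a value of at least 1 in 5 or more libraries entered the fit on log2(value + 1) with limma 3.58.1 (trend, R 4.3.3), with strain alone in the model, two-sided p-values and Benjamini-Hochberg adjustment over all genes tested, and checked on simulated data. Fold changes are on that scale, which shrinks those of low genes. The length and GC trend was a spline of 5 degrees of freedom each, fitted per library. Ratios used exact permutation tests (scipy 1.17.1), whose smallest p is 0.000999 here.

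Named genes were the 10 members, the called genes of lowest p in each partner list (up to 4), 3 genes most like each member, and Gpnmb, Ephb4, Nr2f2, Pecam1 and Cdh5; some genes that this rule names are not reported here. Genes outside the rule, such as Cytl1, Gja4, Sox17 and Nt5e, were named after their values were seen. Members and lists were chosen with earlier results of these data known. Dll4 overlaps a gene on the other strand, from which its reads may not be separable without strand information. Library numbers do not overlap between strains (31 to 39 in DBA/2J, 16 to 30 in control), so library order and strain cannot be told apart.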

Additional observations from a re-analysis of the deposited data

Results flagged for a closer look

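Single libraries stood far from the rest of their group on the log2(value + 1) scale in 13 of 158 groups of values examined, where chance alone flags about 1 group in 20. That rate does not apply to genes named after their values were seen or for their likeness to a member, which are among these groups. Among members, Hey1 was 6.14 in DBA/2J sample 8, below the next lowest library at 6.92, and Alpl was 11.15 in DBA/2J sample 4, above the next highest at 10.50. Cep85 and Akap1, named for their likeness to Alpl, were also highest in DBA/2J sample 4, at 9.32 and 11.20, and Hs2st1, named for its likeness to Hey1, was lowest in sample 8, at 8.86. The matrix genes Mfap4 and Fbn1 were highest in DBA/2J sample 5, at 14.21 and 13.86. Control sample 3 was lowest for Adam17 (7.70), Slit2 (7.77) and Syne2 (8.84). Wrap53 was lowest in DBA/2J sample 1 (6.68) and in control sample 4 (6.67), and Uhrf1bp1l was lowest in control sample 5 (6.89).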

How the results depend on the processing

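Beside the fit reported, 34 alternatives were run, of which 2 (without DBA/2J samples 2, 4 and 7, and without samples 1 and 4) were chosen after seeing the data. The number of members called was 6 when libraries were scaled to their own totals, where the median of all genes moved to 0.19 from 0.05, and 6 with the smooth muscle mean as a covariate (Efnb2, Jag1 and Sema3g with Bmx, Fbln5 and, in turn, Alpl or Dll4). It was 1 with controls 4 and 5 alone (Jag1), 0 after removal of the length and GC trend and 0 with the lens mean as a covariate. In fits without 1 library it ran from 2 to 4. The number of genes called, 5619, ran from 3521 (without control sample 3) to 6320 without 1 library. It was 3741 with controls 1 to 3 alone, 2418 with controls 4 and 5 alone, 3453 without DBA/2J samples 2, 4 and 7, and 12 with the lens mean as a covariate. The share of higher among called genes depended on scaling: 3518 higher and 2101 lower as deposited, 2740 and 2868 after quantile normalization, 5422 and 1307 with libraries scaled to their own totals, 3175 and 2470 by median of ratios, and 1615 and 2188 after removal of the length and GC trend.

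Of single members, Hey1, Efnb2, Jag1 and Alpl kept their direction in every alternative. With the lens mean as a covariate, Bmx (-0.15), Sema3g (-0.80), Gkn3 (-2.42), Dll4 (-0.21) and Fbln5 (-0.041) turned to below 0, none of them passing (limma adjusted p 0.32 to 0.989). The lens mean separates the strains without overlap, so lens content and strain cannot be told apart in that fit. Unc5b, not called, turned to -0.16 after removal of the length and GC trend, -0.26 with the Muller glia mean as a covariate and, without 1 library, lay between -0.087 (control sample 1) and 0.50. The cause was not tested. The Efnb2 to Ephb4 ratio difference was -0.019 after removal of the trend, -0.51 with controls 4 and 5 alone, and ran from -0.064 to 0.40 in fits without 1 library. That of Dll4 to Jag1 ran from -0.19 to 0.51 without 1 library. Neither passed in any alternative (adjusted exact permutation p 0.673 to 0.963).

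Replicate numbers are shared by the strains but did not pair the libraries: the correlation of same-numbered deviations was -0.154 to 0.0191, and no library correlated best with its own number. With the replicate block, 2465 genes and 2 members (Sema3g and Jag1) were called, and Efnb2 was at 0.89 (limma adjusted p = 0.0514). Sema3g was also lost without a filter on low values (2.80), with array weights (2.57) and with Xist (2.53) or the Muller glia mean (3.08) as a covariate (limma adjusted p 0.0586 to 0.0783). Counts limit Sema3g, Gkn3 and Dll4, with lowest estimated reads of 5, 5 and 12.1 in DBA/2J and of 2, 1 and 34.5 in control libraries.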
